A study of Homo sapiens with 18 samples.

Results

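The MHC class I presentation genes comprised 9 members, HLA-B, HLA-C, HLA-E, B2M, TAP1, TAP2, TAPBP, PSMB8 and PSMB9, taken by gene symbol. All 9 had a row among the 15358 genes of the MCF10A table and among the 15257 genes of the hTERT RPE-1 table. MCF10A is a non-transformed human breast epithelial line, and hTERT RPE-1 is a human retinal pigment epithelial line immortalized with telomerase. Cells of each line received a non-targeting siRNA (siNT), an hsa-miR-28-5p mimic or an hsa-miR-708-5p mimic, each at 30 nM for 72 h, and polyadenylated RNA was sequenced from 3 biological replicates per group, 18 libraries in all. A mimic is a synthetic duplex that acts as the named microRNA, and both mimics belong to the MIR-28 family. They are called miR-28 and miR-708 from here on. Each line is 1 established cell line, so no spread between donors was measured.

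MHC class I molecules display short peptides from inside the cell to cytotoxic T cells and natural killer cells. The proteasome cuts proteins into peptides, the TAP1 and TAP2 transporter moves the peptides into the endoplasmic reticulum, tapasin (TAPBP) holds the empty class I molecule at the transporter, and the heavy chain leaves for the cell surface bound to beta-2 microglobulin (B2M). Interferons are known to raise most of these genes together in epithelial cells, and PSMB8 and PSMB9 replace constitutive subunits in the interferon-inducible immunoproteasome.

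The values were read counts divided by a per-library size factor, and each line was scaled on its own. The step between low values put the depth at 19.4 to 31.7 M reads in MCF10A and 23.8 to 40.4 M reads in hTERT RPE-1. One library stood apart. In hTERT RPE-1 miR-28 replicate 1, ribosomal RNA rows took 15.1% of the summed values, against 4.23% to 7.20% in the other 8 libraries of the line, and its value was the lowest of its group for all 9 members. The values of the members with miR-28 in this line are therefore also given without it. The breast epithelial markers KRT5, KRT14, KRT17, TP63, CDH3 and EPCAM all had a row in MCF10A, while in hTERT RPE-1 KRT5, KRT14, KRT17 and EPCAM had none. In hTERT RPE-1, 5 of 6 retinal pigment epithelial markers had a row and RPE65, the visual cycle isomerase, had none. In MCF10A 4 of the 6 had a row, RPE65 among them at no more than 23.9 in 8 libraries and at 114 in miR-28 replicate 7, with summed values of 827 to 1141 in siNT, so the retinal list did not separate the lines by which rows were present. The summed breast markers ran from 147054 to 167751 in siNT, 96343 to 106439 with miR-28 and 76650 to 93736 with miR-708 in MCF10A. The summed retinal markers ran from 1958 to 3299, 1326 to 1362 and 1456 to 1558 in hTERT RPE-1. The part of these shifts in the results was not tested.

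In siNT cells the members differed widely in level. Values were divided by the length of the canonical transcript, so these levels are per kilobase. In MCF10A the order was B2M at 14834 ± 1637 (SD, n = 3), HLA-E at 1163 ± 104, HLA-C at 1053 ± 50.2, TAPBP at 857 ± 109, PSMB8 at 623 ± 109, HLA-B at 594 ± 144, TAP1 at 341 ± 40.3, TAP2 at 304 ± 16.4 and PSMB9 at 27.6 ± 8.03. The library ranges of HLA-E and HLA-C overlapped, as did those of TAPBP and PSMB8, PSMB8 and HLA-B, and TAP1 and TAP2. In hTERT RPE-1 the order was B2M at 24507 ± 341, HLA-C at 6655 ± 787, HLA-B at 5368 ± 808, TAPBP at 2063 ± 125, HLA-E at 1415 ± 185, PSMB8 at 778 ± 54.8, TAP1 at 418 ± 9.56, TAP2 at 156 ± 12.3 and PSMB9 at 122 ± 16.8. There the ranges of HLA-C and HLA-B overlapped, and those of all other neighbours in the order lay apart. B2M led and PSMB9 came last in siNT cells of both lines.

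**Figure D1:**
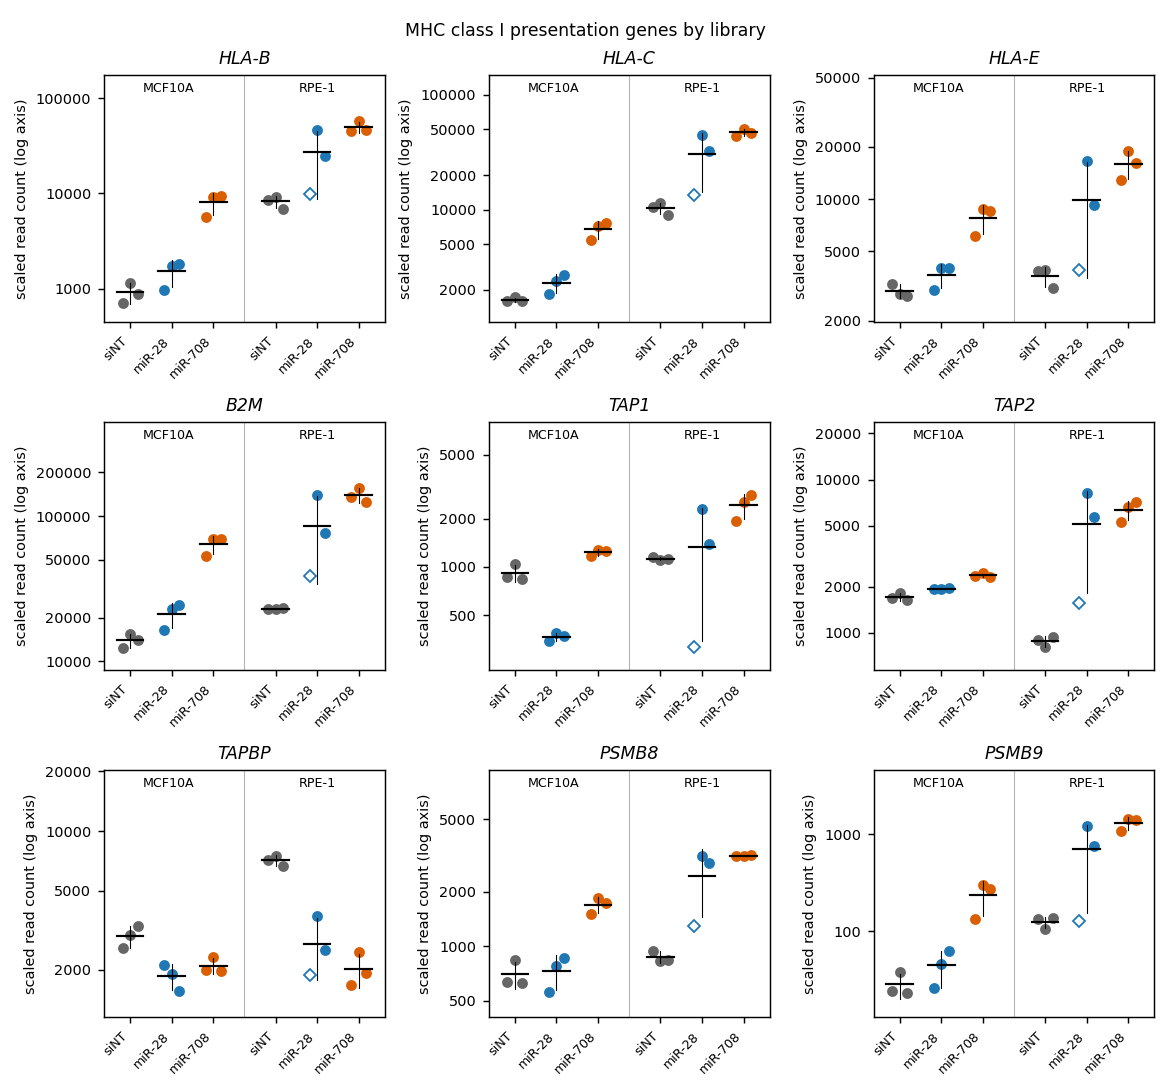
Scaled read count (log axis) of each member in every library, with siNT in grey, miR-28 in blue and miR-708 in orange, MCF10A on the left and RPE-1 on the right of each panel. Points are libraries, horizontal bars are means, vertical lines are SD (n = 3), and the open diamond is RPE-1 miR-28 replicate 1. The 3 orange points lie above the 3 grey points in both lines for each member except TAPBP, where they lie below.

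With miR-708 in MCF10A, class I heavy chains and B2M rose several-fold, and the transporter genes rose far less. All 9 members passed the test against siNT, 8 of them higher and TAPBP lower (limma, Benjamini-Hochberg adjusted p below 0.05 over 14726 genes). Of all genes tested, 32.8% passed, 15.5% higher and 17.3% lower. The median log2 fold change of the members was 1.38, against 0.00 over all genes tested. In bulk RNA, fewer cells carrying a transcript and less of it per cell cannot be told apart.

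HLA-B, a classical heavy chain, had values of 704, 1145 and 886 in the siNT libraries of MCF10A, 974, 1743 and 1822 with miR-28, and 5652, 9176 and 9493 with miR-708. Each miR-708 library exceeded each library of the other groups, while siNT and miR-28 overlapped. The log2 fold change with miR-708 was 3.14 ± 0.26 (SE, adjusted p = 1.97e-05). With miR-28 it was 0.70 ± 0.26 (adjusted p = 0.0765), and with the replicate number as a block the same difference passed (adjusted p = 0.000615). HLA-C, the other classical heavy chain among the members, moved from 1585, 1714 and 1575 in siNT to 5389, 7179 and 7616 with miR-708, a log2 fold change of 2.03 ± 0.15 (adjusted p = 9.58e-06).

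HLA-E presents leader peptides of other class I molecules to natural killer cell receptors. It had 3264, 2850.0 and 2773 in siNT and 6115, 8714 and 8545 with miR-708 in MCF10A, a log2 fold change of 1.38 ± 0.15 (adjusted p = 0.000121). B2M, the light chain shared by class I molecules, rose from 12441, 15529 and 13994 to 53051, 69358 and 69499.5, a log2 fold change of 2.19 ± 0.17 (adjusted p = 1.31e-05). Neither gene had an miR-708 library within its siNT range.

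With miR-28 in MCF10A, 4 of the 9 members passed, HLA-C and B2M higher and TAP1 and TAPBP lower. Over all genes, 22.7% passed, 10.7% higher and 12% lower. HLA-C was at 1824, 2354 and 2677 (log2 fold change 0.48 ± 0.15, adjusted p = 0.0453) and B2M at 16338, 22844 and 24319 (0.58 ± 0.17, adjusted p = 0.0336). These 2 calls were fragile in fits without the replicate block. They were lost without any 1 siNT library and without miR-28 replicate 8 or 9, and the count then fell to 2, while TAP1 and TAPBP still passed. With the replicate number as a block and all libraries kept, both passed (limma, adjusted p = 0.00622 for HLA-C and 0.00332 for B2M). HLA-E was at 2987, 3987 and 3997, with a log2 difference from siNT of 0.29 ± 0.15 (adjusted p = 0.190).

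In hTERT RPE-1, heavy chains and B2M were several-fold higher than siNT with both mimics. With miR-708, 8 of the 9 members passed, 7 higher and TAPBP lower, and TAP1 did not pass. Over 14527 genes tested, 62.1% passed, so calls were common in this line, 30.9% of genes being higher and 31.2% lower. The median log2 fold change of the members was 2.20. With miR-28, 8 members passed as well, 7 higher and TAPBP lower, with 46.8% of all genes passing, 23.3% higher and 23.5% lower. Both comparisons share the siNT libraries.

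For HLA-B in hTERT RPE-1 the values were 8623, 9254 and 6859 in siNT, 9784, 46504 and 25031 with miR-28, and 45952, 57201 and 46340.2 with miR-708. The miR-28 group spread over a wide range, and its lowest library, replicate 1, lay just above siNT. HLA-B rose by 1.46 ± 0.42 on the log2 scale with miR-28 (adjusted p = 0.0161) and by 2.60 ± 0.42 with miR-708 (adjusted p = 0.000348). Without replicate 1 the miR-28 value was 2.06 (adjusted p = 4.28e-05), and without siNT replicate 3 the miR-28 call was lost (adjusted p = 0.0569).

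HLA-C stood at 10556, 11302 and 8928 in siNT, 13359, 45123 and 32338 with miR-28 and 44134, 50643 and 46675 with miR-708. HLA-E stood at 3847, 3909.7 and 3062, then 3897, 16625 and 9200.3, then 12922, 18787 and 16138 in the same order. B2M stood at 22850.5, 23010.1 and 23469, then 38976, 140904 and 76821, then 135408, 156637 and 125708. In each of these genes replicate 1 of miR-28 was the low library, and for HLA-E it lay within the siNT range. The log2 fold changes with miR-28 were 1.40 ± 0.34 for HLA-C (adjusted p = 0.00676), 1.23 ± 0.40 for HLA-E (adjusted p = 0.0265) and 1.70 ± 0.35 for B2M (adjusted p = 0.00277). Without replicate 1 they were 1.90, 1.79 and 2.17. With miR-708 they were 2.20 ± 0.34 for HLA-C (adjusted p = 0.000243), 2.14 ± 0.40 for HLA-E (adjusted p = 0.000856) and 2.59 ± 0.35 for B2M (adjusted p = 0.000103). The heavy chains share long stretches of sequence and vary between people, and reads were aligned to 1 reference genome, so the split of reads among HLA genes is uncertain, while B2M has no such near copy among the members.

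TAP1 and TAP2 form 1 transporter, yet their transcripts moved apart. In MCF10A, TAP1 was at 867, 1039.6 and 839.9 in siNT, fell to 343.3, 384 and 372 with miR-28, and was at 1159.6, 1279.6 and 1252 with miR-708. The 3 groups did not overlap, with miR-28 below and miR-708 above siNT. For TAP1 the log2 fold change was -1.31 ± 0.11 with miR-28 (adjusted p = 0.000107) and 0.43 ± 0.11 with miR-708 (adjusted p = 0.0133). The small rise was not called without siNT replicate 9 (adjusted p = 0.0598) or without miR-708 replicate 8 (adjusted p = 0.0525).

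TAP2 in MCF10A was nearly level, at 1681, 1823 and 1649.7 in siNT, 1924, 1937 and 1951 with miR-28 and 2347, 2448 and 2318 with miR-708. Its groups did not overlap either, but the steps were small, with log2 fold changes of 0.17 ± 0.08 (adjusted p = 0.146) and 0.47 ± 0.08 (adjusted p = 0.00161).

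In hTERT RPE-1 TAP2 moved further than in MCF10A. It was at 894, 809 and 947 in siNT, 1575, 8125 and 5679 with miR-28, and 5325, 6617 and 7133 with miR-708. No mimic library overlapped siNT, and replicate 1 was again the low one. The log2 fold change was 2.24 ± 0.45 (adjusted p = 0.00245) and 2.84 ± 0.45 (adjusted p = 0.000315), respectively. Without replicate 1 the TAP2 value with miR-28 was 2.95 (adjusted p = 2.49e-07).

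TAP1 in hTERT RPE-1 was at 1152, 1103 and 1114 in siNT, 318, 2303 and 1393 with miR-28, and 1931, 2524 and 2802 with miR-708. Replicate 1 of miR-28 was below siNT and the other 2 libraries were above it. The log2 fold change with miR-28 was -0.16 ± 0.54 (adjusted p = 0.831), and without replicate 1 it was 0.67 (adjusted p = 0.0161), which made all 9 members called, 8 higher and TAPBP lower, with 45.3% of all genes passing in that fit. With miR-708 it was 1.09 ± 0.54 (adjusted p = 0.101), although each library exceeded siNT. The spread of the 3 groups was shared in that test, and from the siNT and miR-708 libraries alone TAP1 passed (adjusted p = 1.88e-05).

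The ratio of TAP1 to TAP2 within each library does not depend on the scaling. In hTERT RPE-1 it was 1.29, 1.36 and 1.18 in siNT, 0.202, 0.284 and 0.245 with miR-28, and 0.363, 0.381 and 0.393 with miR-708. Replicate 1, with 0.202, sat beside the other libraries of its group in this measure. The ratio was 5.28-fold lower than siNT with miR-28 and 3.37-fold lower with miR-708. In MCF10A it was 0.516, 0.570 and 0.509 in siNT, 0.178, 0.198 and 0.191 with miR-28, and 0.494, 0.523 and 0.540 with miR-708, so it was 2.81-fold lower with miR-28 and overlapped siNT with miR-708. Where groups did not overlap, the exact permutation test of 3 against 3 libraries gave its smallest possible p (0.10, two-sided). Over the 20 such tests of 5 ratios, chosen after the values were seen, the adjusted p was 0.118.

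TAP1 and PSMB9 are neighbours whose first listed RefSeq starts lie 488 bases apart on opposite strands, and TAP1 also fell behind PSMB9. The ratio of TAP1 to PSMB9 in hTERT RPE-1 went from 8.67, 10.6 and 8.25 in siNT to 2.52, 1.89 and 1.84 with miR-28 and to 1.78, 1.74 and 1.99 with miR-708. In MCF10A it went from 36.2, 27.7 and 36.8 to 13.5, 8.42 and 5.99 and to 8.76, 4.22 and 4.60. In both lines and with both mimics, each mimic library lay below each siNT library (exact permutation p = 0.10). The annotated TAP1 and PSMB9 genes overlap on opposite strands, as do PSMB8 and PSMB8-AS1, and the strand used in counting is not given in the sources used here, so reads in the shared stretch could be assigned to either gene.

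TAPBP, which encodes tapasin, was the member that fell with both mimics in both lines. In MCF10A it had 2565, 2990.0 and 3318 in siNT, 2105, 1909.8 and 1554 with miR-28, and 1998, 2305 and 1975 with miR-708. All mimic libraries lay below the siNT libraries. TAPBP had a log2 fold change of -0.68 ± 0.13 with miR-28 (adjusted p = 0.00516) and -0.49 ± 0.13 with miR-708 (adjusted p = 0.0144). The latter call was lost when libraries were scaled to their summed values (-0.35, adjusted p = 0.0769), a scaling that moved the median of all genes to 0.14, and without siNT replicate 9 (adjusted p = 0.0639) or miR-708 replicate 9 (adjusted p = 0.0572).

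In hTERT RPE-1 the fall of TAPBP was larger. Its values were 7183, 7513 and 6655 in siNT, 1879, 3704 and 2510.4 with miR-28, and 1678, 2446 and 1913 with miR-708. The log2 fold change was -1.45 ± 0.21 (adjusted p = 0.000345) and -1.84 ± 0.21 (adjusted p = 3.33e-05), respectively, and without replicate 1 the former was -1.22 (adjusted p = 0.000252). Set against B2M, TAPBP went from 0.314, 0.326 and 0.284 in siNT to 0.0482, 0.0263 and 0.0327 with miR-28 and to 0.0124, 0.0156 and 0.0152 with miR-708, which is 8.89-fold and 21.5-fold lower. In MCF10A the same ratio was 2.39-fold and 6.42-fold lower. The ratio joins a fall of TAPBP to a rise of B2M.

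**Figure D2:**
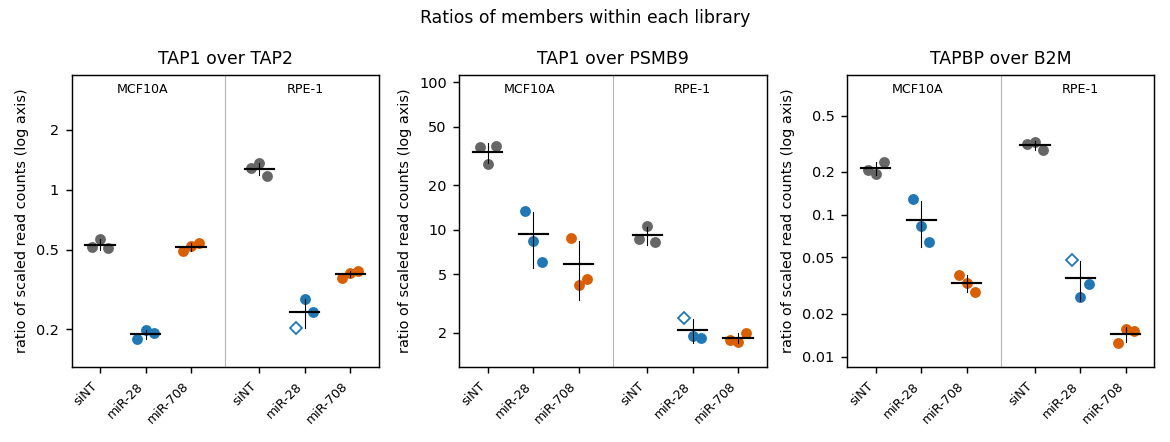
Ratio of scaled read counts (log axis) within each library for TAP1 over TAP2, TAP1 over PSMB9 and TAPBP over B2M, with siNT in grey, miR-28 in blue and miR-708 in orange. Points are libraries, horizontal bars are means, vertical lines are SD (n = 3), and the open diamond is RPE-1 miR-28 replicate 1. The mimic points lie below the siNT points in all panels except for TAP1 over TAP2 with miR-708 in MCF10A.

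The mature strand of one mimic and the matches to its seed in TAP1 and TAPBP are shown because these genes were the members that fell in a test against siNT. A microRNA seed is bases 2 to 8 from its 5′ end, and it pairs with complementary letters of a target transcript, most often in the 3′ UTR. The study describes the MIR-28 family as sharing 1 seed. The mature hsa-miR-708-5p sequence in RefSeq (MIR708, GRCh38.p14, chr11:79402077-79402099, minus strand) is given 5′ to 3′ with the seed in capitals.
hsa-miR-708-5p: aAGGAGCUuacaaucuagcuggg
Seed matches, in capitals, in the canonical GENCODE 44 transcripts are given in the sense direction (hg38, minus strand, 3′ UTR in the last exon of each). The TAP1 site lies at chr6:32845435-32845456, with the last 6 letters of the match starting at base 138 of the 3′ UTR. The TAPBP site lies at chr6:33301667-33301688, with the match at base 87, and the second TAPBP site at chr6:33299908-33299929, with the match at base 1846.
TAP1 3′ UTR: ttacctcctttccaAGCTCCTc
TAPBP 3′ UTR, first site: aataccctatcatctGCTCCTA
TAPBP 3′ UTR, second site: ccccgcggatcatggGCTCCTc
The TAP1 match has 7 letters (AGCTCCT), the first TAPBP match has 7 letters (GCTCCTA) and the second has 6.

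The other 7 members held no match of 6 or more letters in their 3′ UTR. Among 13774 tested genes with an annotated 3′ UTR, 35.8% held a match of 6 or more letters and 18.7% one of 7 or 8. In coding sequence, TAP1 held 3 matches, TAPBP 2, and HLA-B, HLA-C and HLA-E 1 each, while B2M, TAP2, PSMB8 and PSMB9 held none. Of these, 1 in TAP1 had 7 letters and the rest had 6. Among the same tested genes, 23.9% held a coding match of 7 or 8 letters. The share with a coding match of 6 letters was not counted. A match of letters is a description of the transcript. Pairing with either mimic was not measured, and TAP1 was also higher than siNT with miR-708 in MCF10A.

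The inducible proteasome subunits PSMB8 and PSMB9 rose with miR-708 in both lines, and in hTERT RPE-1 with miR-28 too. PSMB9 in MCF10A was at 23.9, 37.5 and 22.8 in siNT, 25.5, 45.6 and 62.1 with miR-28, and 132, 303 and 272 with miR-708. The miR-28 libraries overlapped siNT and the miR-708 libraries did not. Its log2 difference from siNT was 0.59 ± 0.39 (adjusted p = 0.302) and 2.97 ± 0.39 (adjusted p = 0.000306). In hTERT RPE-1 PSMB9 was at 133, 104 and 135 in siNT, 127, 1216 and 757 with miR-28 and 1083, 1449.6 and 1405 with miR-708. There its log2 fold change of 3.39 ± 0.62 (adjusted p = 0.000805) with miR-708 was the highest estimate among the members, and with miR-28 it was 1.98 ± 0.62 (adjusted p = 0.0239), or 2.95 without replicate 1, whose value of 127 lay within the siNT range. The calls of PSMB9 and HLA-E with miR-28 were lost without any 1 siNT library and without miR-28 replicate 2 or 3, with adjusted p between 0.0524 and 0.0856.

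PSMB8 in MCF10A was at 634, 841 and 625 in siNT, 556, 775 and 865 with miR-28, and 1509, 1850.0 and 1729.7 with miR-708. Only the last group stood apart, with a log2 fold change of 1.28 ± 0.17 (adjusted p = 0.000319). In hTERT RPE-1 PSMB8 was at 945, 833 and 845 in siNT, 1301, 3158 and 2859.9 with miR-28, and 3163, 3156 and 3165 with miR-708. Here both mimics were above siNT, with log2 fold changes of 1.38 ± 0.26 (adjusted p = 0.00159) and 1.85 ± 0.26 (adjusted p = 0.000125). Without replicate 1 the PSMB8 value with miR-28 was 1.78 (adjusted p = 2.08e-07). The constitutive subunit that PSMB9 replaces, PSMB6, fell in all 4 comparisons with siNT, by 0.32 to 0.75 on the log2 scale. The ratio of PSMB9 to PSMB6 with miR-708 was 10.2-fold that of siNT in MCF10A and 17.7-fold in hTERT RPE-1. With miR-28 it was 2.03-fold with overlapping libraries in MCF10A (exact permutation p = 0.20) and 6.51-fold in hTERT RPE-1.

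**Figure D3:**
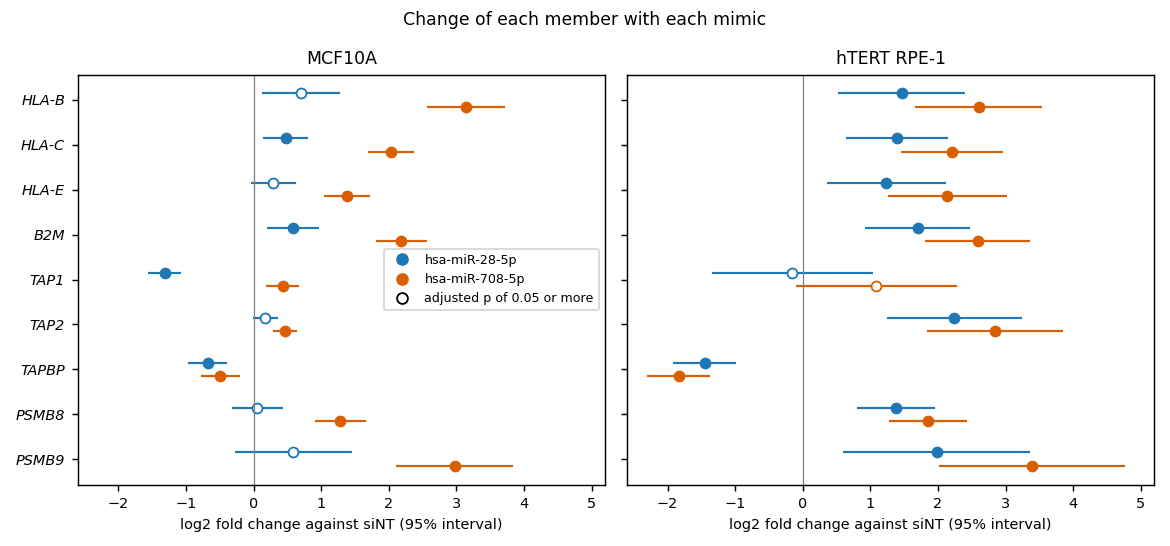
Log2 fold change against siNT of each member with miR-28 (blue) and miR-708 (orange) in MCF10A and hTERT RPE-1, with 95% intervals as horizontal lines and open points where the adjusted p was 0.05 or more. TAPBP lies below 0 in all 4 comparisons, from -1.84 to -0.49, and TAP1 with miR-28 in MCF10A lies at -1.31.

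Both mimics were given at the same dose and for the same time, so they could be compared with each other. Tested directly against miR-28 over all genes of each line, 7 of the 9 members were higher with miR-708 in MCF10A, where 1.55% of all genes passed and 1.28% were higher. HLA-B differed by a log2 value of 2.44 ± 0.26 (adjusted p = 0.000327), PSMB9 by 2.38 ± 0.39 (adjusted p = 0.00903), TAP1 by 1.75 ± 0.11 (adjusted p = 4.79e-06), and B2M, HLA-C, PSMB8 and HLA-E by 1.61, 1.56, 1.23 and 1.09. The PSMB9 call was lost without miR-708 replicate 8 (adjusted p = 0.0637) or 9 (adjusted p = 0.0611). TAP2 differed by 0.29 (95% interval 0.11 to 0.47, adjusted p = 0.130) and TAPBP by 0.18 (-0.11 to 0.47, adjusted p = 0.540).

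In hTERT RPE-1 none of the 9 members passed that test (limma), against 21.2% of all genes, 9.88% higher and 11.4% lower, and the groups overlapped in each member. At an unadjusted p below 0.05 (limma), 6 members were higher, beside 5124 of the 14527 genes tested that passed in either direction. The intervals were wide, for example 0.21 to 2.07 for HLA-B (adjusted p = 0.0801) and 0.03 to 2.79 for PSMB9 (adjusted p = 0.134). Same-numbered libraries of these 2 groups deviated together, but the labels do not say what a shared number stands for. With the number as a block HLA-B passed (limma, adjusted p = 0.0423). Without miR-28 replicate 1, TAPBP alone passed, lower with miR-708 by a log2 difference of -0.62 (adjusted p = 0.0386, with 14.4% of all genes passing), and without replicate 2, the highest of that group, 6 members were higher, with 28.2% of all genes passing and 13.6% higher. Scaled to summed values or by quantiles, 3 members passed, HLA-B, HLA-C and B2M. Of all genes, 32% passed under the former scaling, 84.8% of them higher and with the median of all genes at 0.23, and 21.2% passed under the latter.

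The response was then compared between the lines, as the hTERT RPE-1 log2 fold change minus that of MCF10A over 13339 genes tested in both. TAP2 had the largest difference, 2.07 ± 0.46 for miR-28 (adjusted p = 0.00845) and 2.37 ± 0.46 for miR-708 (adjusted p = 0.00177). TAPBP fell further in hTERT RPE-1, by differences of -0.78 ± 0.25 (adjusted p = 0.0315) and -1.34 ± 0.25 (adjusted p = 0.000386). The miR-28 difference of TAPBP was fragile. Its call was lost without the variance trend (adjusted p = 0.0664) and without any 1 of MCF10A siNT replicate 7, MCF10A miR-28 replicate 7 or 8, hTERT RPE-1 siNT replicate 1 or 2, or hTERT RPE-1 miR-28 replicate 1 or 3 (adjusted p from 0.0507 to 0.0855). PSMB8 differed for miR-28, by 1.33 ± 0.31 (adjusted p = 0.00539). Without hTERT RPE-1 miR-28 replicate 1 the miR-28 differences were 2.77 for TAP2 and 1.73 for PSMB8.

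In all, 3 members differed between the lines for miR-28, beside 23.4% of all genes, and 2 for miR-708, beside 39.8%. Without hTERT RPE-1 miR-28 replicate 1 the former count rose to 8, all with the higher value in hTERT RPE-1, beside 24.2% of all genes, and TAPBP was no longer called (-0.55, adjusted p = 0.0751). With the replicate block it was 5, HLA-C and B2M being added, beside 28.2% of all genes. For miR-708 the differences of HLA-B, HLA-C, B2M and PSMB9 lay between -0.54 and 0.42, none passing, with 95% intervals reaching from -1.59 to 1.97.

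The promoters of B2M, TAP1 and TAPBP are shown because they carry the letters of an interferon-stimulated response element, and these genes moved in different directions. The windows run from 250 bases before to 50 after the start, on the gene's strand (RefSeq, GRCh38.p14), with matches to GAAANNGAAA on either strand in capitals. They lie at chr15:44711267-44711566 (B2M, plus strand), chr6:32853655-32853954 (TAP1, minus strand) and chr6:33314029-33314328 (TAPBP, minus strand).
B2M: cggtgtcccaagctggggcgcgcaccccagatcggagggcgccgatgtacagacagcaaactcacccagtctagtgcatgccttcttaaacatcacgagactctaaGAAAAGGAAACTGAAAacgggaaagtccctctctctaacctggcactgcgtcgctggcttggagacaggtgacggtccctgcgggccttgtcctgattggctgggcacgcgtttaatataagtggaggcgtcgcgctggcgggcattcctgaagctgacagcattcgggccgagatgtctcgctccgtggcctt
TAP1: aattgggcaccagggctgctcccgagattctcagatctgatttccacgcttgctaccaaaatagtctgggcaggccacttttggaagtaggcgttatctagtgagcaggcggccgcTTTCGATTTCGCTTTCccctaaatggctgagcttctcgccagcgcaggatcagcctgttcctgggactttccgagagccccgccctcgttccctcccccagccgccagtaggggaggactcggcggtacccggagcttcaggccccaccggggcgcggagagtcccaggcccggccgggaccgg
TAPBP: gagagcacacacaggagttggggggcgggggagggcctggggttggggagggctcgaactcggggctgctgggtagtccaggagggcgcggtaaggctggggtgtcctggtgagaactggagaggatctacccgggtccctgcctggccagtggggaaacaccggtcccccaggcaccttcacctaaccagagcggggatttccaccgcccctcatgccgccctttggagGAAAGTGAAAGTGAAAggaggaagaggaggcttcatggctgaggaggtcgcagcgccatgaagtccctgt
In each of these windows 2 matches overlap. TAP2 held 1 match 58 bases before its start and PSMB8 held 1 at its second listed start. HLA-B, HLA-C and PSMB9 held none, and HLA-E was not searched. Over 35116 promoters of the same length, 3.57% held the letters. CCAAT, the letters of an NF-Y site, was found in 5 members, HLA-B, HLA-C, B2M, TAP1 and PSMB9, and in 34.6% of all promoters. The exact letters GGGANTTCCC, a form of the kappaB element, were found in none of the members and 0.444% of promoters. Other forms of the kappaB element were not searched, so its absence from these promoters is not shown. TAPBP, with 2 exact matches to the interferon element, fell, and HLA-B and PSMB9, with no exact match in their own windows, rose. The TAP1 matches, 134 to 119 bases before the TAP1 start, lie between the TAP1 and PSMB9 starts. They are thus also upstream of PSMB9, beyond the edge of its window. Interferon elements in other letters or elsewhere outside the windows were not searched. Whether any match bears on the change of a member was not tested. Binding of factors was not measured.

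Other genes of the pathway were counted by list, to be read beside the share of all genes that passed, 32.8% with miR-708 and 22.7% with miR-28 in MCF10A, and for hTERT RPE-1 62.1% and 46.8%. The lists are short, and a count near that share is no result about a list. Of 14 regulators of class I transcription, 6 were higher and 3 lower with miR-708 in MCF10A, 3 and 2 with miR-28, and 8 and 2 with either mimic in hTERT RPE-1, also without replicate 1, which is near the share of all genes for miR-708 in that line. NLRC5, the class I transactivator, rose by 1.88 ± 0.23 with miR-708 in MCF10A (adjusted p = 0.000171), and in hTERT RPE-1 by 1.82 ± 0.42 (adjusted p = 0.00325) and 1.29 ± 0.42 with miR-28 (adjusted p = 0.0277). IRF1, IRF9 and RFX5 were higher in all 4 comparisons. RELA and NFKB1, subunits of NF-kappaB, were lower in all 4, RELA by 0.55 to 1.65 on the log2 scale.

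Of 4 partners of the inducible proteasome, with miR-708, 3 were higher in MCF10A and 4 in hTERT RPE-1, where 15.5% and 30.9% of all genes were higher. With miR-28 none and 2 were higher (3 without replicate 1), the latter near the share of all genes that passed. PSME2, a subunit of the PA28 activator, rose by 1.05 ± 0.15 with miR-708 in MCF10A (adjusted p = 0.000535) and by 2.08 ± 0.26 in hTERT RPE-1 (adjusted p = 5.41e-05). Of the 3 constitutive catalytic subunits, 2 were lower in each comparison except miR-708 in hTERT RPE-1, where PSMB6 alone was lower, and none was higher.

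Of 7 genes of peptide loading and trimming, 3 were higher and 1 lower with miR-708 in MCF10A, while hTERT RPE-1 had 4 higher and 3 lower. With miR-28 the counts were 1 and 0, and 3 and 1 (4 and 0 without replicate 1). ERAP2, an aminopeptidase that trims peptides in the endoplasmic reticulum, was higher in all 4 comparisons, reaching 3.24 ± 0.36 in hTERT RPE-1 with miR-708 (adjusted p = 2.58e-05). LNPEP, a related aminopeptidase, fell by 0.58 with miR-708 in MCF10A (adjusted p = 0.0156) and rose by 0.68 with miR-28 and 0.61 with miR-708 in hTERT RPE-1 (adjusted p = 0.00745 and 0.00891). TAPBPL, the tapasin-related editor TAPBPR, rose with miR-708 by 1.32 ± 0.35 in MCF10A (adjusted p = 0.0149) and 1.12 ± 0.42 in hTERT RPE-1 (adjusted p = 0.0367), opposite in direction to TAPBP. The chaperones CALR, CANX and PDIA3 of the loading complex were lower with miR-708 in hTERT RPE-1, by 0.68, 0.45 and 0.42 on the log2 scale.

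Of 6 class I-like molecules tested in MCF10A, 4 were higher with miR-708 and 2 with miR-28, and of 7 in hTERT RPE-1, 4 were higher and 1 lower with miR-708 and 2 and 1 with miR-28 (3 and 1 without replicate 1). The hTERT RPE-1 counts lie near the share of all genes that passed. MICB, a ligand of the NKG2D receptor of natural killer cells, was higher in all 4 comparisons, by 0.62 to 1.17. FCGRT, the neonatal Fc receptor, which also pairs with B2M, was lower in hTERT RPE-1, by 1.31 ± 0.17 with miR-708 (adjusted p = 6.03e-05), and had no row in MCF10A.

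**Figure D4:**
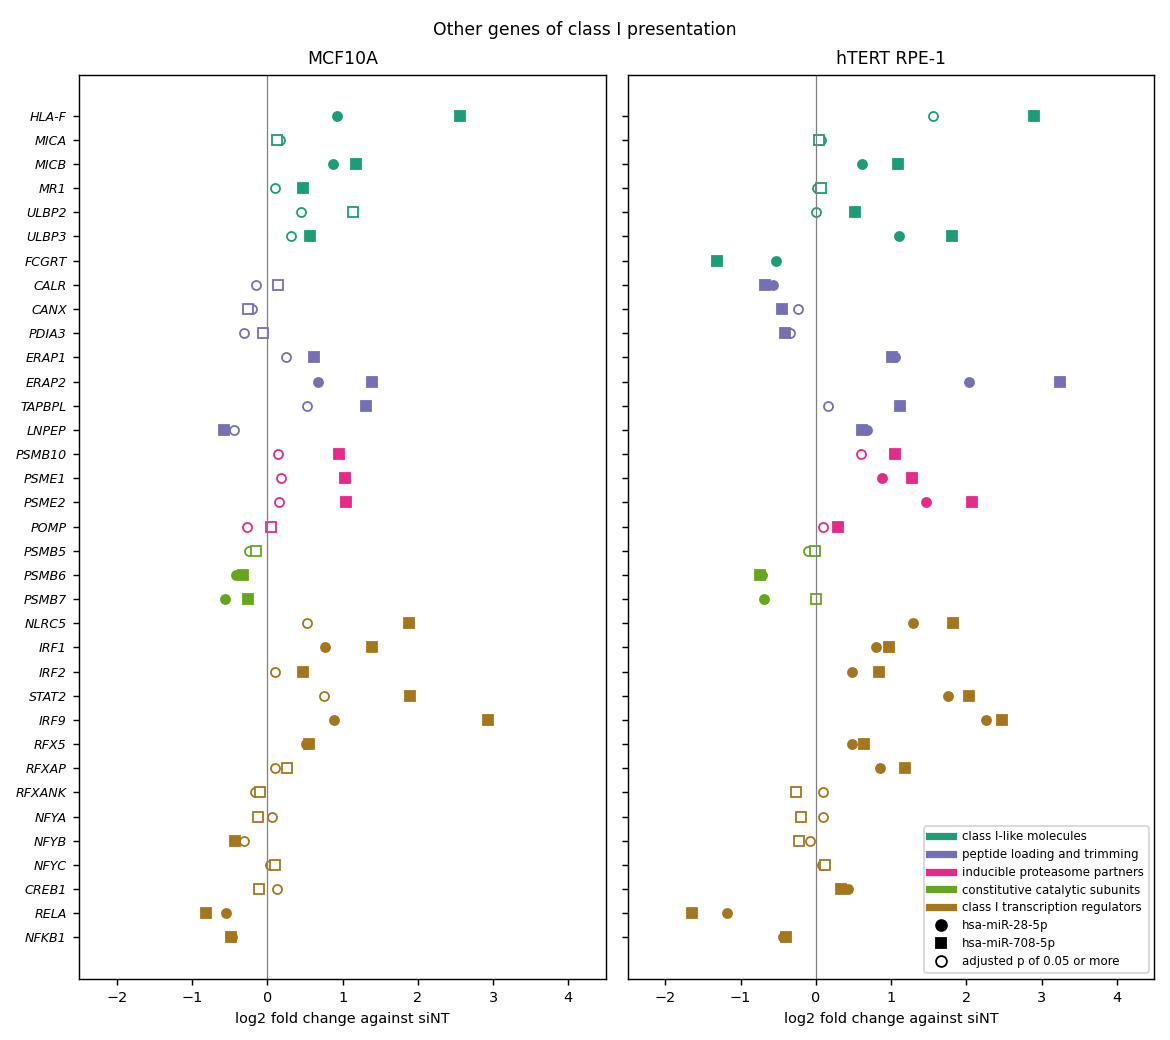
Log2 fold change against siNT of other genes of class I presentation with miR-28 (circles) and miR-708 (squares) in MCF10A and hTERT RPE-1, coloured by list, with open symbols where the adjusted p was 0.05 or more. IRF9 reaches 2.93 and 2.48 with miR-708, and RELA lies below 0 in both panels.

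Interferon indicator genes moved with the members. Of 6 listed, ISG15, MX1, IFIT1, OAS1, IFI6 and GBP1, all were higher with miR-708 in both lines and with miR-28 in hTERT RPE-1, whereas with miR-28 in MCF10A 3 were higher and OAS1 was lower. Their summed values ran from 955 to 1157 in siNT, from 1209.9 to 1802 with miR-28 and from 29786 to 49818 with miR-708 in MCF10A. In hTERT RPE-1 they ran from 5214 to 6595, from 16391 to 153829 and from 130078 to 148091, with 16391 in miR-28 replicate 1. Of 7 interferon genes only IFNE had a row, and it passed in none of the 4 comparisons (limma, adjusted p from 0.371 to 0.811). The part of interferon signalling in the changes of the members was not tested.

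Of 5 leukocyte markers, the defining genes PTPRC, CD3E and MS4A1 had no row in MCF10A, and in hTERT RPE-1 PTPRC alone of 5 had one, at 3.14 to 11.4 in the 9 libraries. The summed CD14 and LYZ values in MCF10A ran from 248 to 491 in siNT, 190.2 to 221 with miR-28 and 279 to 325 with miR-708, and CD14 fell with miR-28 by 0.87 on the log2 scale (adjusted p = 0.0151).

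The genes whose log2 values followed the mean of the members most closely over the 9 libraries of a line were sought among genes with a mean of at least 100. In MCF10A they were UBE2L6, IFITM1, USP18, IFI44L and BST2, with Pearson r from 0.989 to 0.996 over 11250 genes compared. UBE2L6, the ISG15-conjugating enzyme, went from 332 ± 60.6 (SD, n = 3) in siNT to 370.1 ± 102 with miR-28 and 2704 ± 674 with miR-708. In hTERT RPE-1 they were HLA-F, APOL1, THEMIS2, GBP4 and AKAP7, with r from 0.988 to 0.994 over 11431 genes. HLA-F, a non-classical class I gene, went from 164 ± 28.1 to 681 ± 560 and 1228 ± 243. Libraries of a group share their treatment, so r here mainly reflects group means and is given as a description. Within the members, TAPBP was the one that ran against the mean, with r of -0.21 in MCF10A, against -0.58 in hTERT RPE-1. TAP1 followed the mean least among the rest, with 0.70 and 0.83. Each member is part of that mean, which raises its r, so these values are not on a par with those of other genes.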

How the data were processed

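RNA was taken with TRIzol, made into poly(A) libraries and sequenced as paired ends in 18 libraries. The authors trimmed adapters, aligned reads to hg38 with HISAT2 2.1.0, used the E/M quantifier of Partek on RefSeq transcripts, and tested with DESeq2. The deposited signal values are estimated reads divided by a size factor, 1 table per line with no zeros. About 78.5% to 82.6% of values under 30 were whole multiples of a library's step (tolerance 0.02), so counts were not recovered. The deposited comparison files hold the authors' fold changes, p-values and gene positions and were not used.

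Here, log2(value + 1) of genes with at least 10 in at least 3 of 9 libraries was fitted per line with limma 3.58.1 (R 4.3.3), 3 group means, a variance trend and Benjamini-Hochberg adjustment over all genes tested, with calls at an adjusted p below 0.05. The pseudocount understates changes of low genes. Line differences used the summed squared standard errors with Welch-Satterthwaite degrees of freedom. Ratios used exact permutation tests (scipy 1.17.1). The fits were also run on simulated data with known changes and the same spread setting for every gene. Those data held no outlying library and no matched replicates, so they say nothing about calls that turn on either. Replicates are those the labels call biological, and p-values measure their spread. Seed and motif matches were searched by exact letters on GENCODE 44 and RefSeq sequences.

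Every member was named, list genes were given as counts with values for some that passed, and the 5 genes most like the members' mean were named per line. The members and lists were chosen with earlier results of these data known. A gene of the regulator list and one of the leukocyte list are not reported here and were left out of the counts. Same-numbered libraries deviated together (every correlation above 0.1) for MCF10A miR-28 with siNT (0.111 to 0.263), MCF10A miR-708 with siNT (0.115 to 0.302) and hTERT RPE-1 miR-708 with miR-28 (0.134 to 0.278), and not for the other comparisons (lowest 0.0214). The labels give the same replicate numbers to all groups of a line but do not say what a shared number stands for. The highest correlation among differently numbered libraries was 0.11, for MCF10A miR-28 replicate 9 with siNT replicate 8. That same-numbered libraries are matched was inferred from these correlations, and the main fits did not use the numbers. With the block, the MCF10A share of all genes called against siNT went from 22.7% to 29.9% with miR-28. With miR-708 it went from 32.8% to 39.5%. Alternatives were pseudocounts of 0.5 and 5, no filter, scaling to summed values, quantile normalization, no trend, the compared groups alone, the replicate block and each library left out.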

Additional observations from a re-analysis of the deposited data

Results flagged for a closer look

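The response to the mimics differed between hTERT RPE-1 and MCF10A, by a test of the difference itself, for 3 members. Of all genes tested, 23.4% differed for miR-28, where 3 members did, and 39.8% for miR-708, where 2 members did. Differences between the lines were thus common, and the counts are no result about the members as a set. The TAP2 difference was 2.07 on the log2 scale for miR-28 and 2.37 for miR-708, with the larger rise in hTERT RPE-1. The TAPBP difference was -0.78 for miR-28 and -1.34 for miR-708, with the larger fall in hTERT RPE-1. The miR-28 difference of TAPBP lost its call without the variance trend (adjusted p = 0.0664) and in several fits with 1 library left out. For PSMB8 the difference was 1.33 for miR-28. Groups of 3 libraries were too small to be screened for single outlying libraries.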

How the results depend on the processing

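No member value called in the main fit changed direction in any alternative. TAP1 with miR-28 in hTERT RPE-1, not called in the main fit (-0.16), did change direction. Without miR-28 replicate 1 it was called higher (0.67, limma, adjusted p = 0.0161). Over 558 member values from settings other than leaving out a library, 536 stayed on the same side of the threshold, 8 lost the call and 14 gained it. Over 540 values with 1 library left out, 489 stayed, 34 lost the call and 17 gained it. The count of members called with miR-28 in MCF10A (4) was 2 without the variance trend and 2 to 5 with 1 library left out. In hTERT RPE-1 with miR-28 (8) it was 5 to 9 with 1 library left out, 5 without siNT replicate 3, and 6 without the trend or with only the 2 groups compared, HLA-E and PSMB9 being lost (adjusted p from 0.0503 to 0.0553). For miR-708 against miR-28 in hTERT RPE-1 (0) it was 3 with scaling to summed values, 3 with quantile normalization, 1 with the replicate block and 0 to 6 with 1 library left out. For the line difference with miR-28 (3) it was 5 with the replicate block and 2 to 8 with 1 library left out. The block changed the call of HLA-B with miR-28 in MCF10A (5 members) and no other member call against siNT. The share of all genes called moved with the setting as well. With miR-28 in MCF10A that share was 18.1% without the trend and 29.9% with the block, against 22.7% in the main fit. With miR-28 in hTERT RPE-1 it was 44.5% without the trend, against 46.8%. For miR-708 against miR-28 in hTERT RPE-1 it was 22.8% with the block, against 21.2%. It is not given for most fits with 1 library left out, or for the compared groups alone. The cause of these shifts was not tested. Scaling to summed values moved the median of all genes in hTERT RPE-1 to 0.32 with miR-708, raised the share of called genes that were higher from 49.7% to 71.9%, and called TAP1 (1.41, adjusted p = 0.0429). In MCF10A it raised that share from 47.1% to 66.2% with miR-28 and from 47.3% to 67.6% with miR-708. The count of other list genes called without hTERT RPE-1 miR-28 replicate 1 was chosen after seeing the data. With 3 libraries a group, small changes of PSMB9, at 22.8 to 37.5 in MCF10A siNT, were poorly resolved.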
